A study of Saccharomyces cerevisiae with 6 samples.

Results

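The genes described here are 59 of the 7125 genes in the deposited table, chosen by name for their function. They are 3 genes that control the transcription factor Gcn4 or encode it, and 56 genes for enzymes, subunits and 1 pathway regulator of amino acid synthesis. By family, 7 belong to arginine, 6 to histidine, 7 to lysine, 11 to the branched-chain amino acids, 14 to the aromatic ones, 5 to homoserine and threonine, 4 to serine and 2 to asparagine. In budding yeast, uncharged tRNA activates the kinase Gcn2, which phosphorylates the initiation factor eIF2. General translation then falls, while short reading frames upstream of the GCN4 coding region let more ribosomes reach it. Gcn4 in turn activates genes in most amino acid pathways, a response called general amino acid control.

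Poly(A)-selected RNA was sequenced with strand information from Saccharomyces cerevisiae of the S288C background, and the comparison asks how transcript levels differ between a wild-type and a kap114 knockout strain in high salt. Both groups, wild type and Kap114 KO, were grown in YPD, a rich medium that itself supplies amino acids, with 1.5 M NaCl, and each had 3 libraries. The library names of all 6 samples also contain TAF1, and the labels do not say what it stands for. No culture without added salt was analysed here. KAP114 encodes a nuclear import receptor, a karyopherin, and it had 257, 336 and 312 reads in wild-type libraries 1 to 3 and 0 reads in each knockout library. Independent cultures behind the libraries are not stated, and every p-value below rests on a spread that may thus be technical alone. Library totals lay between 33638728 and 38540115 reads, and 3 reads, the limit that a count of 0 allows, correspond to 0.0778 to 0.0892 CPM, for counting error only. Knockout library 1 lay nearer the wild type than the other knockout libraries, at 12.01 on the first principal component of log2 CPM against 53.0 and 42.4, with the wild type at -43.0, -29.5 and -35.0. Reads on RDN37, the ribosomal RNA precursor, made up 3.69% to 4.54% of the wild-type libraries and 9.05% to 12.3% of the knockout libraries, and their part in the results below was not tested.

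Gcn4 binds the sequence TGACTC, often followed by A, and its matches in these genes are shown. The genes were not chosen by sequence. Most amino acid pathways are known to be under Gcn4, however, so the matches are not independent of a choice by function. In the window from 250 bases before the start codon to 50 bases into the coding region, TGACTC or its reverse complement GAGTCA was found for 33 of the 59 genes (55.9%), against 479 of 6001 protein-coding genes (7.98%). The longer TGACTCA was found for 21 of the 59 (35.6%) and for 2.73% of all windows, and every match to it is also a match to TGACTC. Upstream of the start codon, 32 genes held a match, and the nearest one lay 90 bases or more before the start codon, with a median of 160 bases. The only match of GCN2 lay inside its coding region, as did a second match of TRP2. HIS4, HIS7 and LYS1 held 2 matches each upstream. The matches of the following genes, whose transcripts rose most among those with a match, and that of LEU4, the only gene with a match whose transcript fell, are printed with their flanks in RefSeq build R64, 5′ to 3′ on the strand of the gene, with the match in capitals; for TRP2 the upstream match and for HIS4 the one nearer the start codon is given.
SER2 (chrVII:911719-911742, plus strand): agaaagaaaGAGTCAatactaata
HIS7 (chrII:716681-716704, minus strand): aaaaaaattGAGTCAtatcgtagc
HIS7 (chrII:716595-716618, minus strand): atgagaaaaGAGTCAgacatcgaa
HOM2 (chrIV:770164-770187, plus strand): agcattgatTGACTCattttcctc
TRP2 (chrV:337778-337801, plus strand): gtgatttgcTGACTCattacgatt
HIS1 (chrV:265954-265977, minus strand): cttccaagtGAGTCAcctctaccg
ASN1 (chrXVI:822384-822407, plus strand): tgtaacattTGACTCattctgtaa
THR1 (chrVIII:159328-159351, plus strand): tttgtgcaaGAGTCAtcatctcga
THR4 (chrIII:216509-216532, plus strand): cgaacaaaaGAGTCAttacaacga
ARG7 (chrXIII:396517-396540, minus strand): caggtaggaTGACTCactgcgtaa
ARG4 (chrVIII:141567-141590, minus strand): gtagatgaaTGACTCactttttgg
ILV3 (chrX:466329-466352, minus strand): ctctccagaTGACTCagtaatata
HIS4 (chrIII:68518-68541, minus strand): catgcacagTGACTCacgtttttt
LEU4 (chrXIV:426841-426864, minus strand): acgtgtaagTGACTCagttctttc

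Whole windows are shown for HIS7, which has 2 matches, and for CPA1, the most abundant of these transcripts, which has none in its window. A longer window of 500 bases before the start codon does hold a match for CPA1. In the window of HIS7 the coding region starts after 250 bases and matches are in capitals, and in that of CPA1 nothing is in capitals because neither TGACTC nor GAGTCA occurs in it.
HIS7 (chrII:716416-716715, minus strand): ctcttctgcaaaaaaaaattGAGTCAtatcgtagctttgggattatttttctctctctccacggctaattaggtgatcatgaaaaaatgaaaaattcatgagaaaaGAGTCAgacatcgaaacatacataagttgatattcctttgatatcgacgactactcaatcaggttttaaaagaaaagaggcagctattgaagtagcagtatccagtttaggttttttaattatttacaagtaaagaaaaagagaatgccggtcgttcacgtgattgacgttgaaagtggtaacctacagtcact
CPA1 (chrXV:882649-882948, plus strand): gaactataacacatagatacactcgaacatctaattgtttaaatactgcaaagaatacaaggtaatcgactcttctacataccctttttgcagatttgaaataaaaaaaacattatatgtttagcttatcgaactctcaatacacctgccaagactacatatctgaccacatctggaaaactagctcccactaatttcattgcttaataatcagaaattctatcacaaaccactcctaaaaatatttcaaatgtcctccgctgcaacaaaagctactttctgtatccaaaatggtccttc

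Most genes of amino acid synthesis were higher in the knockout. The RNA came from bulk cultures, so fewer cells with a transcript and less of it in each cell cannot be told apart. All 59 passed the filter on low counts, and 42 of them (71.2%) rose and 6 (10.2%) fell at an adjusted p under 0.05 in edgeR's quasi-likelihood test. Among all 6080 tested genes 34.3% rose and 30.0% fell, so the share that rose stood above the background and the share that fell stood below it. The genes were chosen with earlier results of these data known, so the comparison with the background is a description and was not tested. The median log2 fold change of the 59 genes was 0.96, with quartiles of 0.43 and 1.71, against a median of 0.01 for all tested genes. A rise of at least 2-fold that passed was found for 29 of the 59 (49.2%) against 17.1% of all tested genes, and a fall of that size for 3 (5.08%) against 7.63%. In either direction 48 of the 59 passed, against 64.3% of all tested genes. Scaled read counts (CPM, in which a gene's reads are divided by the scaled library size) did not overlap between the groups for 49 of the 59 (73.8% of all tested genes), with 42 higher (background 37.9%) and 7 lower (background 35.9%).

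The size of the shift differed between knockout libraries. Set against the wild-type mean, the median log2 difference of the 59 genes was 0.63, 1.28 and 1.05 in knockout libraries 1 to 3, and it lay between -0.04 and 0.04 in the wild-type libraries. Of the 42 genes that rose, 41 had their lowest knockout value in library 1, the exception being ARG2. Without knockout library 1, 46 genes rose and 8 fell, and without knockout library 3, 39 rose and 3 fell. With library totals alone as scaling, the median over all tested genes moved from 0.01 to -0.13 and that of the 59 genes to 0.81.

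**Figure D1:**
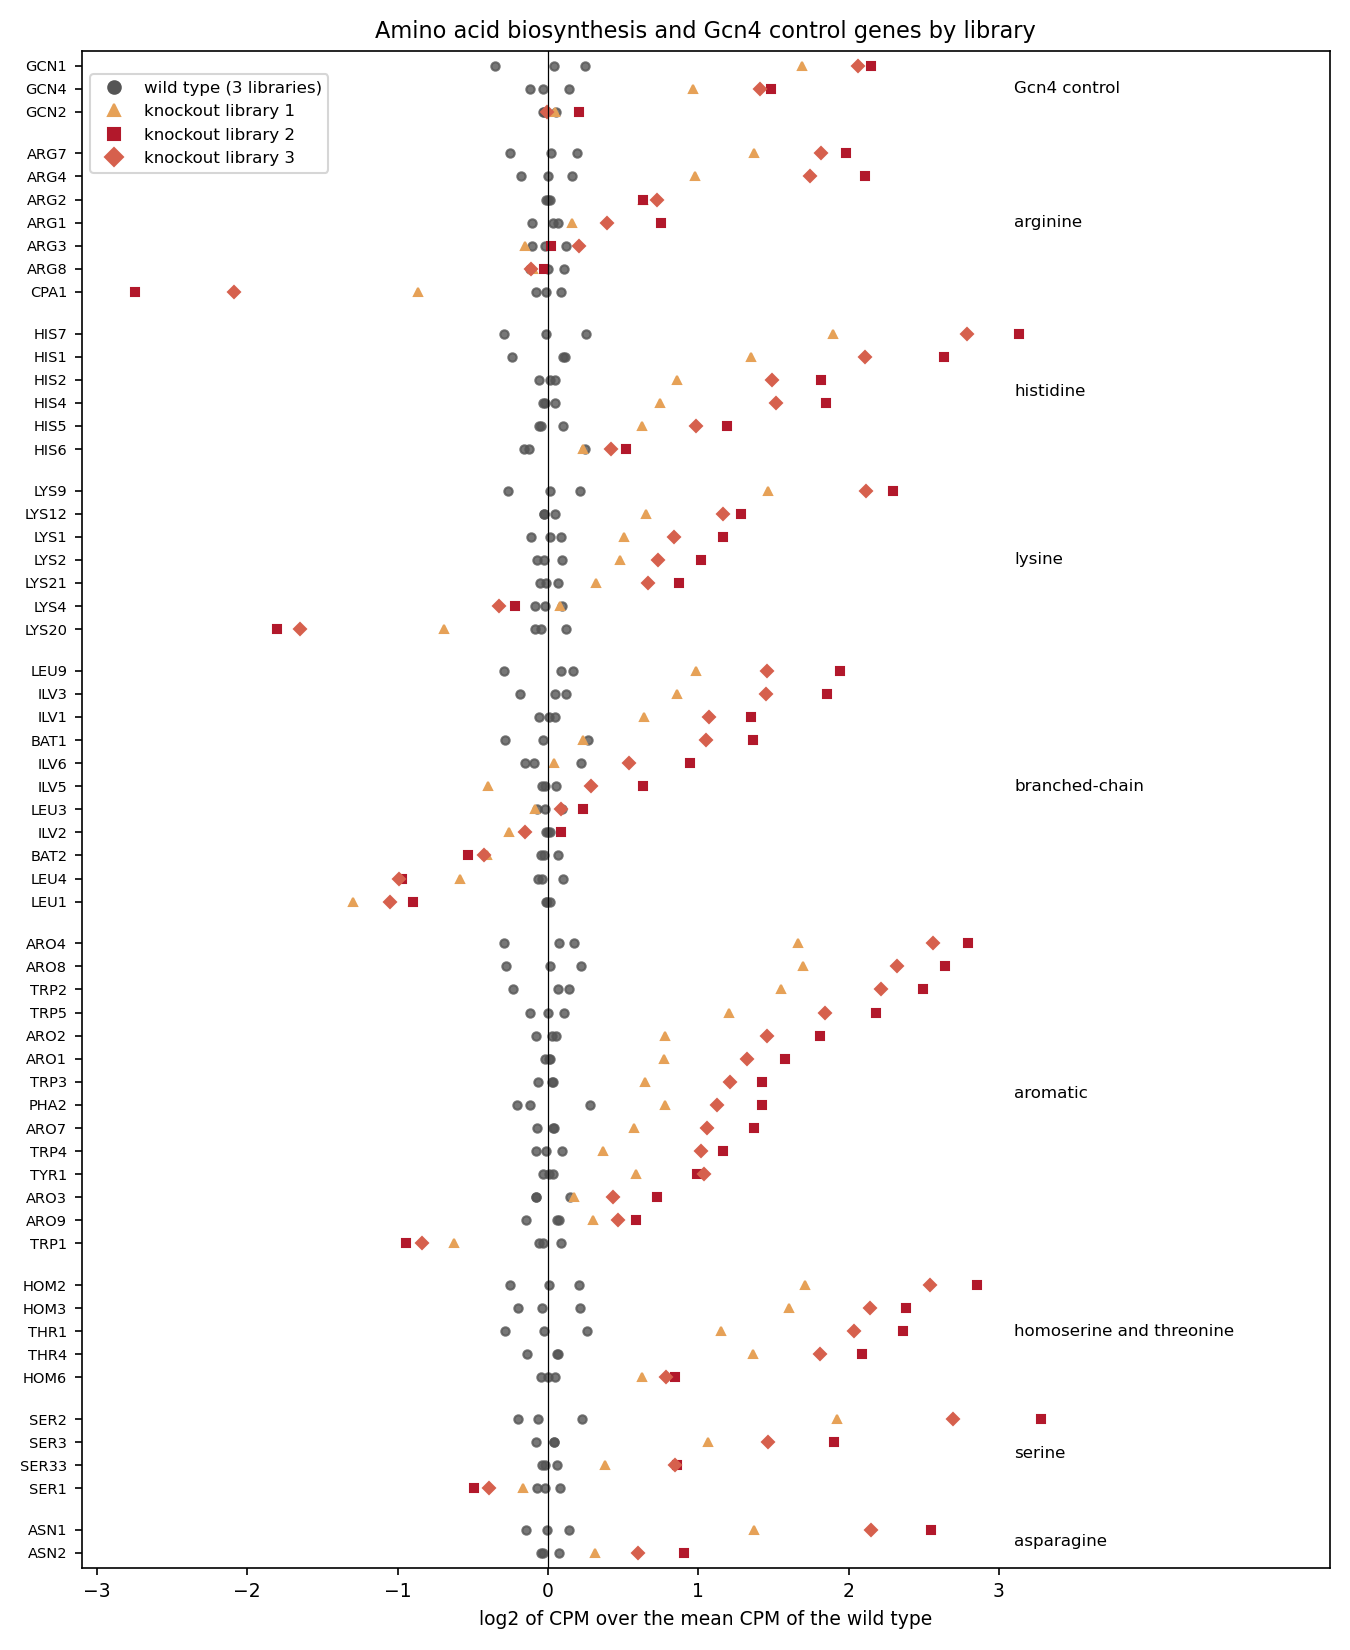
Each row is a gene, ordered by fold change within its family, and each point a library, placed at the log2 of its CPM over the wild-type mean CPM. Grey circles are the 3 wild-type libraries and coloured symbols the knockout libraries; 42 genes lie to the right beyond the test's threshold, knockout library 1 is mostly nearest to 0, and CPA1, LYS20, LEU1, LEU4, TRP1 and BAT2 lie to the left.

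**Figure D2:**
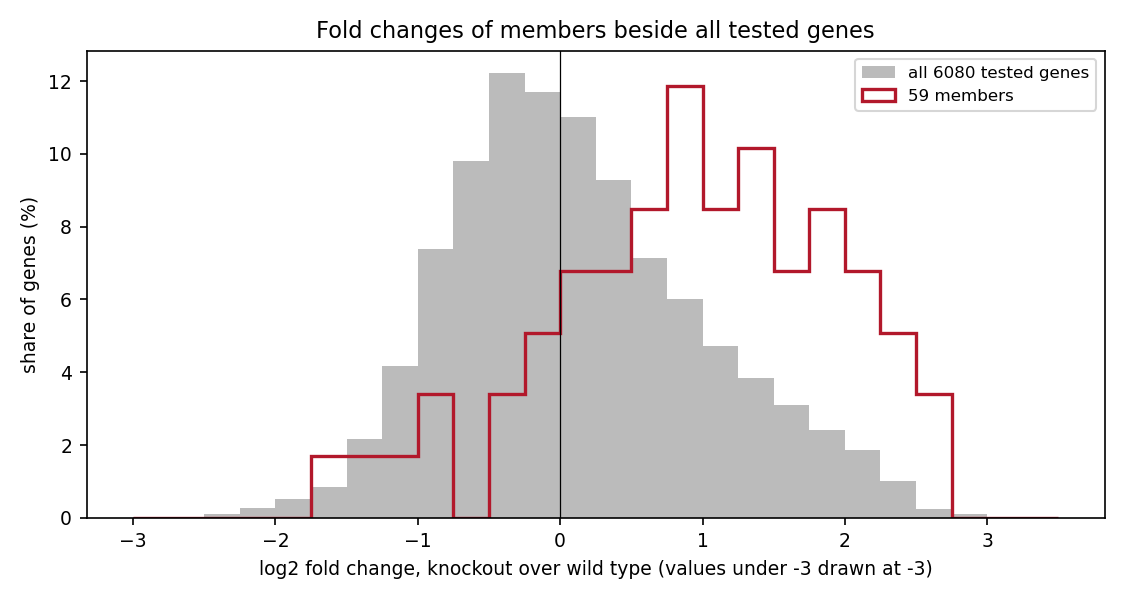
The horizontal axis is the log2 fold change of knockout over wild type and the vertical axis the share of genes in bins of equal width, for all 6080 tested genes (grey) and the 59 genes of amino acid synthesis (red line). The medians are 0.01 and 0.96.

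Of the genes that control the response, GCN4 and GCN1 rose and GCN2 did not pass. GCN4 (chromosome V, 138918 to 139763, minus strand, build R64), for the transcription factor itself, was measured at 312, 390.2 and 346 TPM in wild-type libraries 1 to 3 and 656, 927 and 879 TPM in knockout libraries 1 to 3. All knockout values lay above all wild-type values, and GCN4 rose 2.47-fold (log2 1.31 ± 0.19, SE, adjusted p = 0.0014). GCN1, whose product binds ribosomes and is needed to activate Gcn2, stood at 5.92, 9.36 and 8.1 TPM in wild-type libraries 1 to 3 and 24.1, 32.7 and 30.7 TPM in knockout libraries 1 to 3 and rose 3.95-fold. GCN2, the eIF2 kinase, was at 8.42 ± 0.0706 TPM in the wild type and 8.51 ± 0.63 TPM in the knockout (SD, n = 3 each), with overlapping groups and a log2 fold change of 0.09 ± 0.09 (SE) that turned to -0.06 with library totals alone as scaling. RNA levels do not report the translation of GCN4, at which this control is known to act. Among 15 further genes of Gcn4 and eIF2 control, 8 (53.3%) rose and the other 7 did not pass, with a median log2 fold change of 0.31. Of all tested genes 34.3% rose and 30.0% fell. The share of this list that rose stood above that background, and no gene of it fell. In either direction 64.3% of all tested genes passed, so this list passed less often than tested genes at large. GCN20, for the partner of Gcn1, rose 3.13-fold from 21.4 ± 2.08 TPM to 63.8 ± 15.4 TPM, and GCD10, for a subunit of a tRNA methyltransferase, rose 2.8-fold (SD, n = 3 each).

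The arginine genes did not move as a block: 4 of 7 rose, 1 fell and 2 did not pass. The background was 34.3% higher and 30.0% lower among all tested genes. CPA1 (chromosome XV, 882899 to 884134, plus strand), for the small subunit of the carbamoyl phosphate synthetase of this pathway, was measured at 3040.2, 2829 and 2958 TPM in wild-type libraries 1 to 3 and 1552, 416 and 656 TPM in knockout libraries 1 to 3. It was lower in all knockout libraries, by 3.22-fold (log2 -1.69 ± 0.47, SE, adjusted p = 0.0159). The knockout values spread widely: without knockout library 1 the fall was 5.19-fold (log2 -2.38), and without knockout library 3 the adjusted p was 0.0645. ARG7, for the mitochondrial ornithine acetyltransferase, rose 3.36-fold from 72.1 ± 12.5 TPM to 229 ± 46.5 TPM, and ARG4, for argininosuccinate lyase, 3.21-fold from 56.7 ± 7.83 TPM to 172 ± 62.2 TPM (SD, n = 3 each). ARG2, for acetylglutamate synthase at the entry to ornithine synthesis, rose 1.58-fold, with narrow values of 8.47, 9.01 and 8.89 TPM in the wild type and 13.1, 12.9 and 13.8 TPM in the knockout. ARG1, for argininosuccinate synthetase, passed at a log2 fold change of 0.46 ± 0.17 (SE, adjusted p = 0.0441), and its adjusted p was 0.0883 to 0.139 when any single library other than knockout library 1 was left out and 0.134 with library totals as scaling. It was 0.0561 with RLE scaling, and 0.0763 and 0.0766 with limma on TPM. ARG8, for acetylornithine aminotransferase, was at -0.08 ± 0.10, and ARG3, for ornithine carbamoyltransferase, at 0.03 ± 0.12 with a sign that changed with the scaling (log2, SE).

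Histidine genes rose, 5 of 6 of them, against 34.3% of all tested genes. HIS7 (chromosome II, 714807 to 716465, minus strand), for imidazole glycerol phosphate synthase, was measured at 7.34, 11.2 and 9.29 TPM in wild-type libraries 1 to 3 and 32.9, 76.7 and 60.4 TPM in knockout libraries 1 to 3. It rose 6.45-fold (log2 2.69 ± 0.32, SE, adjusted p = 0.00114), with no overlap between the groups. HIS1, for the phosphoribosyltransferase at the entry to the pathway, rose 4.36-fold, from 32.5, 43.3 and 43.0 to 96.9, 232 and 162 TPM over libraries 1 to 3. HIS4, for an enzyme of several steps, and HIS2, for histidinol phosphatase, had log2 fold changes of 1.44 ± 0.26 and 1.44 ± 0.23, and HIS5, for the aminotransferase, one of 0.95 ± 0.16 (SE). HIS6, for an isomerase, was at 15.8 ± 2.76 TPM and 19.7 ± 1.83 TPM (SD, n = 3 each); its adjusted p was 0.0521. It passed when wild-type library 3 or knockout library 1 was left out, at 0.0261 and 0.0145, and with upper-quartile scaling (0.0459), a filter of 10 CPM (0.0492) and limma-voom (0.0468). HIS7 and ARO4, which lie 416 bases apart on the same strand, are the only 2 of the 59 genes that are direct neighbours, and the window printed for HIS7 covers part of that gap and the start of its coding region.

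Of 7 lysine genes, 5 rose and 1 fell, against 34.3% and 30.0% of all tested genes. LYS20 and LYS21 encode homocitrate synthases for the committed step, and they moved in opposite directions. LYS20 (chromosome IV, 133437 to 134723, plus strand) was measured at 1394, 1257 and 1295 TPM in wild-type libraries 1 to 3 and 784, 357 and 397 TPM in knockout libraries 1 to 3, a 2.45-fold fall (log2 -1.29 ± 0.32, SE, adjusted p = 0.0105). LYS21 (chromosome IV, 227393 to 228715, plus strand) was measured at 158, 160 and 174 TPM in wild-type libraries 1 to 3 and 196, 284 and 246 TPM in knockout libraries 1 to 3, a 1.56-fold rise (adjusted p = 0.0127), which missed the threshold at 0.052 and 0.0514 without wild-type library 1 or 2. Of all 50-base stretches of these genes, 37.8% of those of LYS20 and 36.7% of those of LYS21 occur at another place in the genome, so the division of reads between them is uncertain. LYS9, for a saccharopine dehydrogenase, rose 4.0-fold, from 31.1 ± 5.2 TPM to 118 ± 32.2 TPM (SD, n = 3 each). LYS12, for homoisocitrate dehydrogenase, rose 2.08-fold, LYS1, for the enzyme that forms lysine, 1.81-fold and LYS2, for aminoadipate reductase, 1.69-fold. LYS4, for homoaconitase, did not pass (log2 -0.14 ± 0.14, SE, adjusted p = 0.39), except without knockout library 1, at 0.0305.

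Of 11 branched-chain genes, 4 rose, 3 fell and 4 did not pass, shares near the 34.3% and 30.0% of all tested genes, with a median log2 fold change of 0.23. On the leucine branch, LEU4, for the main isopropylmalate synthase, was measured at 778, 725 and 738 TPM in wild-type libraries 1 to 3 and 479, 362 and 357 TPM in knockout libraries 1 to 3 and fell 1.78-fold (log2 -0.83 ± 0.19, SE, adjusted p = 0.00804, and 0.0501 without knockout library 3). LEU9, for the second synthase, stood at 14.3, 20.5 and 19.4 TPM in wild-type libraries 1 to 3 and 34.2, 65.6 and 46.9 TPM in knockout libraries 1 to 3 and rose 2.86-fold. LEU1, for the isomerase that acts next, fell 2.1-fold from 132 ± 3.6 TPM to 59.7 ± 7.86 TPM (SD, n = 3 each), and here knockout library 1 was the lowest of the 3. LEU3, for a transcription factor of the leucine pathway, was at 16.1 ± 0.58 TPM and 16.2 ± 1.71 TPM (SD, n = 3 each).

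On the isoleucine and valine branch, ILV3, for dihydroxyacid dehydratase, rose 2.72-fold from 102 ± 13.0 TPM to 263 ± 86.4 TPM, and ILV1, for threonine deaminase, rose 2.07-fold from 47.0 ± 1.08 TPM to 92.6 ± 21.8 TPM (SD, n = 3 each). ILV2 and ILV6, for the catalytic and regulatory subunits of acetolactate synthase, had log2 fold changes of -0.10 ± 0.14 and 0.56 ± 0.23, and ILV5, for the reductoisomerase, one of 0.24 ± 0.25 (SE), and none passed. Without knockout library 1, ILV5 and ILV6 passed at adjusted p of 0.00511 and 0.000894; ILV5 had 144, 289.9 and 228 TPM in the knockout libraries, the first of them below and the others above the wild type at 197 ± 2.36 TPM (SD, n = 3). Of the branched-chain aminotransferases, BAT1, the mitochondrial one, stood at 81.3, 124 and 101 TPM in wild-type libraries 1 to 3 and 115, 248 and 199 TPM in knockout libraries 1 to 3. It passed as higher (log2 0.96 ± 0.29, SE, adjusted p = 0.0219), although its groups overlap, and the adjusted p was 0.0648 to 0.0836 when wild-type library 1 or 3, or knockout library 3, was left out. BAT2, the cytosolic one, stood at 614, 593 and 600.0 TPM in wild-type libraries 1 to 3 and 436, 394 and 426 TPM in knockout libraries 1 to 3 and fell 1.37-fold (adjusted p = 0.0265). Its groups did not overlap, and the adjusted p was 0.0573 to 0.103 when any single library other than knockout library 1 was left out.

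Aromatic genes rose with few exceptions: 12 of 14 were higher, 1 was lower and 1 did not pass, with a median log2 fold change of 1.13. The background was 34.3% higher and 30.0% lower among all tested genes. At the entry to the shikimate pathway, ARO4 (chromosome II, 716882 to 717994, minus strand), for the synthase inhibited by tyrosine, was measured at 75.2, 108 and 101 TPM in wild-type libraries 1 to 3 and 287, 621 and 529 TPM in knockout libraries 1 to 3. It rose 5.34-fold (log2 2.42 ± 0.31, SE, adjusted p = 0.00114). ARO3, for the synthase inhibited by phenylalanine, had 254, 264 and 309 TPM in wild-type libraries 1 to 3 and 298, 432 and 353 TPM in knockout libraries 1 to 3, with an adjusted p of 0.0539, and it passed with DESeq2 (0.0292), upper-quartile scaling (0.0438) and a filter of 10 CPM (0.0485) and without knockout library 1 (0.00227). ARO1, for the enzyme of the central steps, rose 2.4-fold and ARO2, for chorismate synthase, 2.65-fold. On the branch to phenylalanine and tyrosine, ARO7, for chorismate mutase, rose 2.05-fold, PHA2, for prephenate dehydratase, 2.19-fold and TYR1, for prephenate dehydrogenase, 1.85-fold. ARO8, for the main aromatic aminotransferase, rose 4.82-fold from 57.1 ± 10.9 TPM to 261 ± 80.1 TPM (SD, n = 3 each). ARO9, for the second one, which also serves breakdown, rose 1.37-fold, with adjusted p of 0.0582 with library totals as scaling and 0.0527 without wild-type library 1.

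On the tryptophan branch, TRP2, for anthranilate synthase, stood at 21.9, 28.1 and 29.6 TPM in wild-type libraries 1 to 3 and 74.4, 142 and 117 TPM in knockout libraries 1 to 3 and rose 4.4-fold. TRP5, for tryptophan synthase, rose 3.48-fold from 46.1 ± 4.6 TPM to 152 ± 48.2 TPM, TRP3, for the partner subunit of Trp2, 2.19-fold, and TRP4, for the phosphoribosyltransferase, 1.85-fold. TRP1, for phosphoribosylanthranilate isomerase between the steps of Trp4 and Trp3, was measured at 188, 177 and 180.4 TPM in wild-type libraries 1 to 3 and 113, 89.5 and 96.7 TPM in knockout libraries 1 to 3. It fell 1.73-fold with no overlap (log2 -0.79 ± 0.12, SE, adjusted p = 0.00141), while the other 4 TRP genes rose. TRP1 was also the most abundant TRP transcript in the wild type. TRP1 is overlapped by another annotated gene on the opposite strand, as are TRP2, TRP4, LEU4, LEU9 and ARO9. Whether counting used the strand is not given, so reads of overlapping genes cannot be told apart there. HIS6 and SER3 are each overlapped by an annotated transcript on their own strand, where the strand would not separate the reads.

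All 5 genes from aspartate to threonine rose, with a median log2 fold change of 1.93 and group values that did not overlap. Of all tested genes 34.3% rose, and for 37.9% the CPM of the groups did not overlap with the knockout higher. HOM2, for aspartate semialdehyde dehydrogenase, was measured at 63.3, 91.1 and 79.3 TPM in wild-type libraries 1 to 3 and 244, 531 and 428 TPM in knockout libraries 1 to 3, a 5.43-fold rise (log2 2.44 ± 0.30, SE, adjusted p = 0.00114). HOM3, for aspartate kinase, rose 4.22-fold from 17.8 ± 2.92 TPM to 71.5 ± 18.1 TPM, and HOM6, for homoserine dehydrogenase, 1.69-fold from 96.0 ± 3.93 TPM to 154 ± 10.8 TPM (SD, n = 3 each). THR1, for homoserine kinase, and THR4, for threonine synthase, rose 3.82-fold and 3.44-fold. Both asparagine synthetase genes rose: ASN1 stood at 76.2, 96.6 and 87.4 TPM in wild-type libraries 1 to 3 and 214, 479 and 364 TPM in knockout libraries 1 to 3, a 4.28-fold rise. ASN2 stood at 172, 192 and 177 TPM in wild-type libraries 1 to 3 and 215, 319 and 259 TPM in knockout libraries 1 to 3, a 1.54-fold rise (adjusted p = 0.0185), and its adjusted p was 0.0516 to 0.0722 without any single wild-type library or without knockout library 3. Stretches of 50 bases shared with another place made up 2.04% of each ASN gene.

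Of 4 serine genes, 3 rose, against 34.3% of all tested genes, and SER1 did not pass. SER2 (chromosome VII, 911883 to 912812, plus strand), for phosphoserine phosphatase at the end of the pathway, was measured at 4.94, 5.63 and 6.91 TPM in wild-type libraries 1 to 3 and 21.1, 53.6 and 35.7 TPM in knockout libraries 1 to 3, and its 6.66-fold rise was the largest of the 59 genes (log2 2.73 ± 0.34, SE, adjusted p = 0.00114). SER3 and SER33, for phosphoglycerate dehydrogenases at its entry, rose 2.87-fold and 1.64-fold, with SER3 at 95.6, 99.8 and 91.9 TPM in wild-type libraries 1 to 3 and 193, 339.5 and 251 TPM in knockout libraries 1 to 3. The transcript SRG1, which overlaps SER3 on the same strand, had 0 reads in every library, and how shared reads were assigned is not given. SER1, for the aminotransferase between them, stood at 420.5, 409 and 394 TPM in wild-type libraries 1 to 3 and 349.9, 275 and 294 TPM in knockout libraries 1 to 3. Its knockout values all lay under the wild-type values, with an adjusted p of 0.0799 (log2 -0.34 ± 0.15, SE), and it passed without knockout library 1 (0.00621), with DESeq2 (0.00703), with library totals as scaling (0.0202), and with limma on TPM (0.0275 and 0.0274).

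Per length, CPA1 was the most abundant of the 59 transcripts in the wild type, with 28.5% to 30.6% of their summed TPM, and its share was 16.4%, 3.56% and 6.33% in knockout libraries 1 to 3. Summed over the 59 genes, TPM came to 9925, 9921 and 9997 in the wild type against 9467, 11696 and 10365 in the knockout, so the groups overlapped. Without CPA1 the sum was 6885, 7092 and 7039 TPM in the wild type and 7915, 11280 and 9709 TPM in the knockout, with no overlap. Of the 10 most abundant by wild-type TPM (CPA1, LYS20, LEU4, BAT2, SER1, GCN4, ARO3, ILV5, ILV2 and TRP1), 5 fell, 1 rose and 4 did not pass. The other gene that fell, LEU1, had a wild-type mean of 132 TPM. This order uses the wild-type values that also enter the fold change. Over all tested genes 30.0% fell and 34.3% rose, and calls among other abundant genes were not counted.

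**Figure D3:**
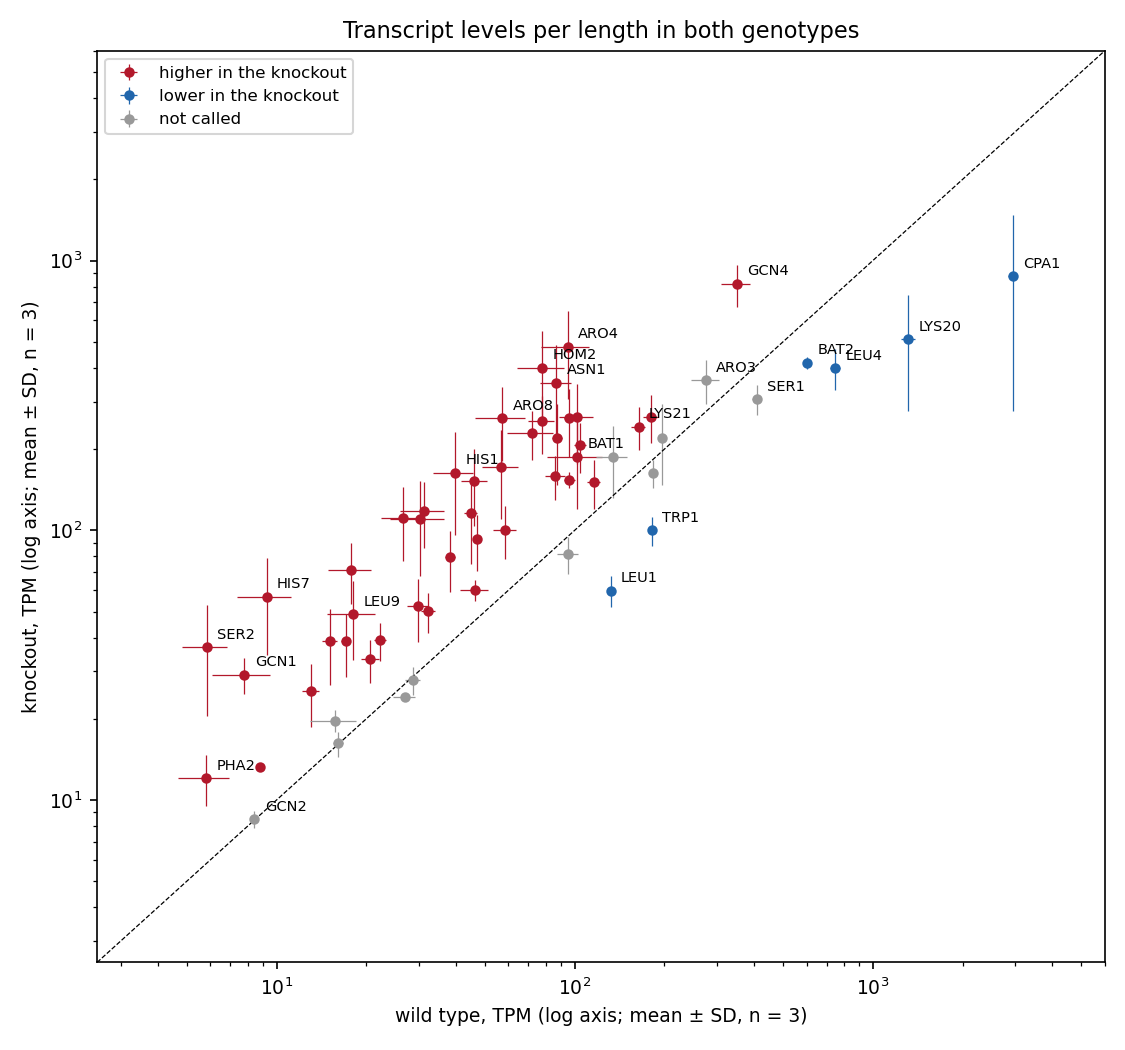
Mean TPM in the wild type (horizontal) and the knockout (vertical), both on log axes, for the 59 genes, with bars of 1 SD over 3 libraries and a dashed line of equal levels. Genes that rose (red) lie above the line from PHA2 at 5.8 TPM in the wild type to GCN4 at 349.6 TPM, and the genes that fell (blue) lie below it at 132 TPM and more.

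The balance between enzymes of the same reaction, or subunits of a complex, was compared as a TPM ratio in 9 pairs, and in all 9 the groups did not overlap. The share of other gene pairs with ratios that do not overlap was not computed. For single genes, CPM did not overlap in 73.8% of all tested genes, so 9 of 9 is not shown to be particular to these pairs. The ratio of LYS20 to LYS21 was 8.85, 7.86 and 7.45 in the wild type against 4.0, 1.26 and 1.61 in the knockout, with the division of reads uncertain as given above. LEU4 over LEU9 was 54.5, 35.3 and 38.0 in the wild type against 14.0, 5.51 and 7.6 in the knockout, a difference of -2.32 between the group means on the log2 scale. In each of these pairs the gene that was ahead in the wild type stayed ahead in every knockout library, by less. The ratio of BAT1 to BAT2 was 0.132, 0.209 and 0.168 in the wild type against 0.263, 0.63 and 0.468 in the knockout, so the cytosolic gene stayed the more abundant in every library. ARO3 over ARO4 was 3.37, 2.44 and 3.07 in the wild type against 1.04, 0.695 and 0.667 in the knockout: ARO3 was ahead in the wild type and ARO4 in knockout libraries 2 and 3. For ASN1 over ASN2 the ratio was 0.444, 0.503 and 0.492 in the wild type against 0.999, 1.5 and 1.41 in the knockout. ASN2 was thus ahead in the wild type, and in the knockout the pair was level in library 1 and ASN1 ahead in libraries 2 and 3. ARO8 over ARO9 was 1.13, 1.37 and 1.2 in the wild type against 3.25, 5.14 and 4.47 in the knockout, and SER3 over SER33 was 3.14, 2.93 and 2.85 in the wild type against 4.78, 6.14 and 4.58 in the knockout, so the gene already ahead was further ahead in the knockout. For partners in a complex, TRP2 over TRP3 went from 0.58, 0.709 and 0.80 to 1.3, 1.46 and 1.39, and ILV2 over ILV6 from 1.17, 1.5 and 1.47 to 1.11, 0.752 and 0.843. For each pair the two-sided exact permutation p was 0.1, also adjusted over the 9 pairs, which is the smallest that 3 against 3 libraries allow, so none passes.

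**Figure D4:**
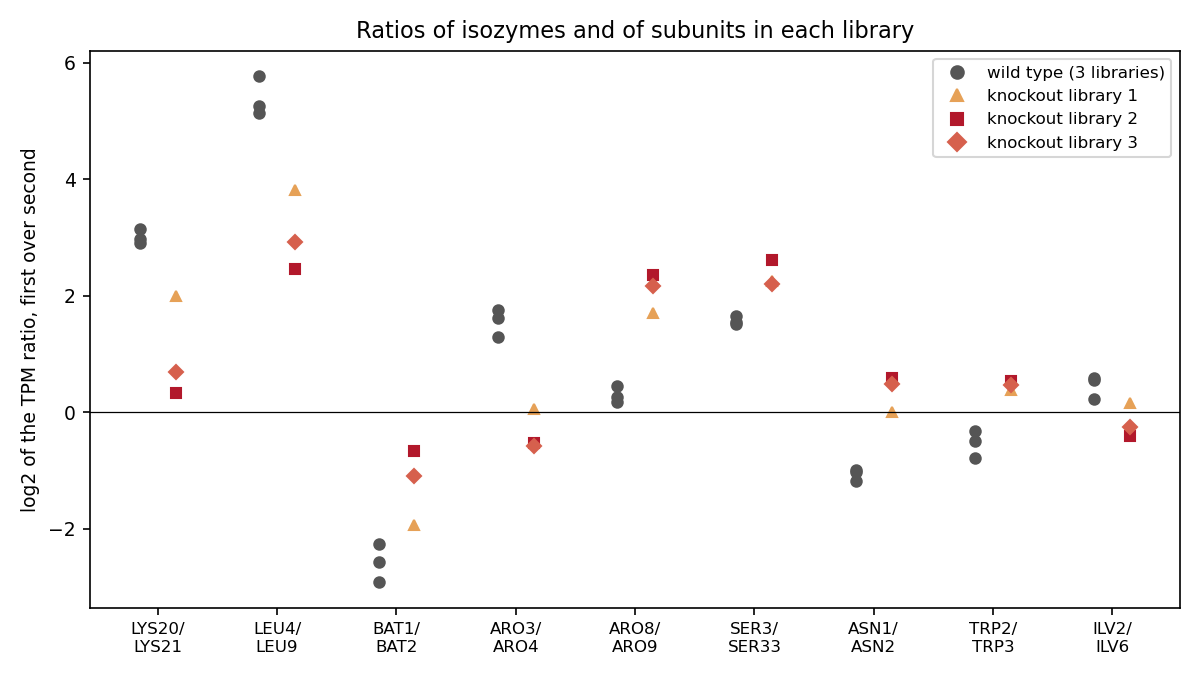
The log2 of the ratio of deposited TPM, first gene over second, is plotted for 9 pairs in each library, with wild-type libraries as grey circles on the left and knockout libraries as coloured symbols on the right of each pair. A value of 0 means equal levels; the ratio of ASN1 to ASN2 moves from 0.444 to 0.503 in the wild type to 0.999 to 1.50 in the knockout.

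Genes with and without the Gcn4 motif in the window both leaned upward. Of the 33 genes with TGACTC, 25 (75.8%) rose, 1 (3.03%) fell and 7 did not pass, with a median log2 fold change of 1.05. Of the 26 without it, 17 (65.4%) rose, 5 (19.2%) fell and 4 did not pass, with a median of 0.82. Among all tested genes 34.3% rose and 30.0% fell. In both groups the share that rose stood above this background and the share that fell stood below it. Of the 6 genes that fell, 5 had no match, but the difference between the groups was not tested. Calls of other tested genes with the motif in their window were not counted, so a background for genes with the motif is missing. ARO4, ARO8, HOM3, LYS9 and GCN1 rose 5.34-fold, 4.82-fold, 4.22-fold, 4.0-fold and 3.95-fold without a match in that window. LEU4, with a match 101 bases before its start codon, fell. By family, a match was present for 5 of 6 histidine genes, 7 of 11 branched-chain genes and 4 of 7 arginine genes. It was present for 5 of 14 aromatic genes and 3 of 5 homoserine and threonine genes. With 500 bases before the start codon, a window chosen after seeing the data, 14.3% of all windows held a match. That longer window held one for all 7 arginine genes, CPA1 included, and for 9 of 11 branched-chain genes. It held one for 6 of 14 aromatic genes and 4 of 5 homoserine and threonine genes. The count of 5 fallen genes without a match thus applies to the shorter window only. Calls were not counted by the longer window. Whether Gcn4 bound any of these sites was not measured.

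**Figure D5:**
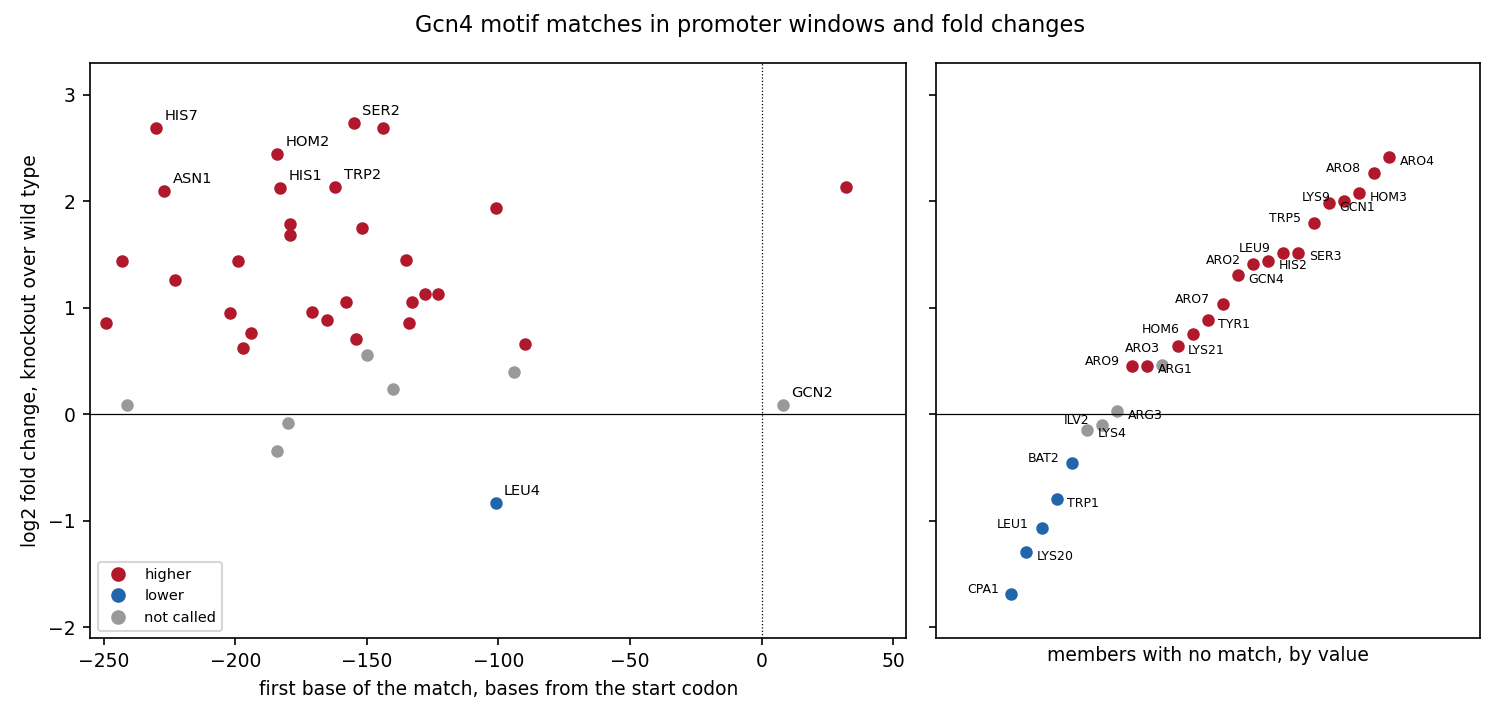
Left, each match to TGACTC or its reverse complement is placed by the distance of its first base from the start codon (horizontal, bases) and by the log2 fold change of its gene (vertical), so a gene with 2 matches appears at 2 places. Right, the 26 genes with no match are ordered by value; red is higher, blue lower and grey not called, and LEU4 is the only blue point on the left.

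Other genes of amino acid metabolism are given by role, and no difference between these lists was tested. Of 19 tested genes for further synthesis steps, 10 rose and 5 fell (of 20 listed), with a median log2 fold change of 0.41. PRO1 and PRO2, for the opening steps of proline synthesis, rose 3.75-fold and 2.39-fold. AGX1, for an aminotransferase that makes glycine from glyoxylate, fell 1.77-fold from 244 ± 17.9 TPM to 131 ± 21.4 TPM (SD, n = 3 each). Of 16 genes for regulators of these pathways and of amino acid sensing, 10 fell and the other 6 did not pass, with a median of -0.46. ARG80, for a factor in the control of arginine genes, fell 2.32-fold from 122 ± 13.4 TPM to 50.1 ± 6.67 TPM, and PTR3, for a part of the plasma membrane amino acid sensor, 2.18-fold from 63.7 ± 3.82 TPM to 27.8 ± 4.46 TPM (SD, n = 3 each). Of 19 amino acid permease genes, 10 fell and 5 rose, with a median of -0.42. PUT4, for the proline permease, fell 3.46-fold and TAT2, for a tryptophan permease, 2.1-fold, while HIP1, for a histidine permease, rose 2.03-fold and GAP1, for the general permease, 1.73-fold. Of 13 genes for amino acid breakdown, 7 fell and 1 rose, with a median of -0.48. CAR2, for ornithine aminotransferase, fell 3.27-fold from 279 ± 68.6 TPM to 81.8 ± 26.7 TPM (SD, n = 3 each) and UGA1, for an aminotransferase of the GABA pathway, 1.7-fold; ASP1, for cytosolic asparaginase, was the gene that rose, 2.3-fold. The background for these counts is again 34.3% higher and 30.0% lower among all tested genes.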

How the data were processed

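RNA of 3 wild-type and 3 Kap114 KO libraries was analysed, grouped by the sample titles. The authors deposited 1 gene table with counts of reads per gene (whole numbers, not normalized) and TPM per library, per the file headers, which also say that reads were trimmed. The submitters' processing notes name FastQC and build R64; no aligner or counter is named there. The 6 deposited RPKM columns, the authors' fold changes and 4 derived tables were not used, and 1 emptied line of the table was dropped. All 59 members matched RefSeq R64 by symbol with identical coordinates, and promoter windows were read from that genome.

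Counts were filtered with filterByExpr (minimum count 10, total 15) and tested with edgeR 4.0.16 in R 4.3.3 (TMM, robust quasi-likelihood fit, Benjamini-Hochberg over 6080 genes, threshold 0.05), checked on simulated data. Log2 fold changes and CPM come from these counts and SEs from the F statistic; levels in TPM are the authors'. TPM is per length and CPM is not, so TPM ratios differ slightly from fitted folds. Alternatives were other scalings and filters, removal of the 10 most abundant genes, DESeq2 1.42.0, limma 3.58.1 (voom, and log2(TPM + 1) or log2(TPM + 0.1)), a replicate block and leaving out each library. The rule for named genes took all members and, from each of 5 companion lists, up to 2 genes with the smallest p in each direction. One gene it selects is not reported here. Members and lists were chosen with earlier results of these data known, so no list was tested as a set.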

Additional observations from a re-analysis of the deposited data

How the results depend on the processing

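The number of tested genes that rose lay between 1729 and 2378 and of those that fell between 1090 and 2261 when each library was left out in turn, and among the 59 genes of amino acid synthesis 37 to 46 rose and 3 to 8 fell. Under the other alternatives, with all libraries, 40 to 44 of the 59 rose and 6 or 7 fell. Of the 48 genes that passed, 40 kept call and direction under each of the 17 alternatives that tested them. The other 8 are ARG1, CPA1, LYS21, LEU4, BAT1, BAT2, ARO9 and ASN2. The filter of 10 CPM tested 58 of the 59 genes and left out PHA2, which is among the 40. Only genes that did not pass changed sign: GCN2 (-0.0574), ARG3 (-0.11) and LEU3 (-0.0591) with library totals, ARG3 with limma on TPM (-0.0424 and -0.0439), and 3 genes when single libraries were left out, ARG3 with a range of -0.0628 to 0.123, LEU3 of -0.000186 to 0.168 and ILV5 of -0.0157 to 0.476 (log2); the cause was not tested. With TGACTCA as the motif 21 windows held a match, since it is a longer word, and with 500 bases before the start codon, chosen after seeing the data, 40 did. Without both wild-type and knockout library 1, also chosen after seeing the data, 46 rose and 8 fell.

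With the titles' replicate number as a replicate block, 43 of the 59 genes rose and 6 fell, with 2059 and 1857 over all tested genes; under the block ARG1 no longer passed (adjusted p = 0.0559), and HIS6 (0.0397) and ARO3 (0.0495) did. The numbers share no stated source, and the deviations of same-numbered libraries from their group means correlated at 0.32, 0.18 and -0.07, so the libraries were not treated as pairs; not every library correlated best with its own number. Isozyme ratios kept their direction without any 1 library (BAT1 over BAT2 from 1.07 to 1.70, LYS20 over LYS21 from -2.50 to -1.66, ILV2 over ILV6 from -0.79 to -0.50, SER3 over SER33 from 0.656 to 0.866, log2) and as ratios of CPM. The RDN37 share moves with genotype, so their parts cannot be told apart.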

Other observations

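Some genes that serve as markers in laboratory strains had few reads or none. URA3 and MET17 had 0 reads in all 6 libraries, under the limit of 3 reads that a count of 0 allows, for counting error only. LEU2, for the enzyme after Leu1 in leucine synthesis, had 0 reads in each wild-type library and 6, 16 and 21 reads in the knockout libraries. HIS3, for a step of histidine synthesis, stood at 915, 1107 and 1031 TPM in wild-type libraries 1 to 3 and 978, 1157 and 1059 TPM in knockout libraries 1 to 3 and did not pass (log2 0.14 ± 0.16, SE). That level was higher than those of the 6 histidine genes described above in every library. The short reading frame YOR302W in the leader of CPA1, chosen after its values were seen, had 128, 140 and 82 reads in the wild type and 78, 21 and 58 in the knockout, with an adjusted p of 0.0654. SRG1, a transcript annotated upstream of SER3 and overlapping it on the same strand, had 0 reads in all 6 libraries.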
